A study of Mus musculus with 2 samples.

Results

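The transcription regulators that specify mouse primordial germ cells (PGCs), Prdm1, Prdm14 and Tfap2c, were examined together with Cbfa2t2, the co-repressor partner of PRDM14. These 4 genes were chosen by symbol from the 18877 genes of the table, and all 4 had a value in both libraries. The data comprised 1 group of 2 RNA-seq libraries, replicate 1 and replicate 2, of untreated PGCs from C57BL6 embryos at embryonic day 9.5 (E9.5). The cells were isolated with an antibody against SSEA1, a carbohydrate antigen of the PGC surface that is not restricted to germ cells. The study's methods give either magnetic sorting with this antibody or flow cytometry that also used CD61 (integrin beta 3), and describe the embryos as female. No other genotype, stage or treatment was analysed here, so the values describe levels in PGCs and not a change of state. The titles number the libraries as separate samples, and whether each came from 1 embryo or a pool is not given in the sources used here.

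PGCs are set apart from the epiblast when BMP and WNT signals from neighbouring tissues induce Prdm1 and Prdm14. PRDM1 (also called BLIMP1) is a zinc finger repressor that silences the somatic programme. PRDM14, a zinc finger protein of the same family, restores pluripotency genes and counteracts DNA methylation. TFAP2C (AP-2 gamma) acts downstream of PRDM1, and CBFA2T2 (also called MTGR1) is a scaffold of the ETO family that carries co-repressors to PRDM14.

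Each gene was located on GRCm38 (mm10) with GENCODE M21, where all 4 are annotated as protein-coding and none overlaps another annotated gene on either strand. Prdm1 lies on chromosome 10 from 44437177 to 44528501 on the minus strand, with 5579 exonic bases. Prdm14 lies on chromosome 1 from 13113457 to 13127163 on the minus strand, with 2564 exonic bases and a single transcript. Tfap2c and Cbfa2t2 both lie on the plus strand of chromosome 2, Tfap2c from 172549593 to 172558622 with 3679 exonic bases and Cbfa2t2 from 154436481 to 154539356 with 8650 exonic bases and 9 transcripts. Which strand setting the counting used is not given in the sources used here, and with no annotated overlap it would not divide reads between these genes and a neighbour.

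The RefSeq promoter table (GRCm38.p6) held 2 of the 4 genes, Prdm1 and Cbfa2t2. The 250 bases before each start site are shown because both genes were expressed in these cells and the windows differ in composition, with CpG dinucleotides in capitals and written 5′ to 3′ on the strand of the gene. They come from chr10:44458749-44458998 for Prdm1 (minus strand, inside the span of a longer annotated transcript) and chr2:154436234-154436483 for Cbfa2t2 (plus strand).

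Prdm1: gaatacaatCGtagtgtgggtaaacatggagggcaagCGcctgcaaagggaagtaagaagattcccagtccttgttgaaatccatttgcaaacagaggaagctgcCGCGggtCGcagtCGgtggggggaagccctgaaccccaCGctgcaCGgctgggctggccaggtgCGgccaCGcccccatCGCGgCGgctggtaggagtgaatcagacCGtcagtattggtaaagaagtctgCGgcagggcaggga

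Cbfa2t2: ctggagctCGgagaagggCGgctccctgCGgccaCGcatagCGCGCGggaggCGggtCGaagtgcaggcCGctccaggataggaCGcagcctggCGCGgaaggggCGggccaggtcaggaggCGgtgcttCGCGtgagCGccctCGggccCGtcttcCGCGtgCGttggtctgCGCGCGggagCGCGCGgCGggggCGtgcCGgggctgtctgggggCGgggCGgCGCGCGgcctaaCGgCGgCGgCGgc

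The Cbfa2t2 window held 41 CpGs and was 78.4% G and C, above 98.1% of all 32851 windows of that length for its G and C content. The Prdm1 window held 15 CpGs and was 59.2% G and C, above 70.1% of windows, while the median window held 6 CpGs. Motifs were searched by their letters on both strands. The GC box GGGCGG occurred 4 times in the Cbfa2t2 window (2 of them sharing a base) and did not occur in that of Prdm1, compared with 32.7% of all windows that held it. Letters for AP-2 (GCCNNNGGC, in 13.7% of windows), PRDM1 (GNGAAAG, in 19.4%), PRDM14 (GGTCTCTAA, in 0.240%) and the TATA box (TATAAA, in 12.4%) were found in neither window. A match or its absence describes these letters only.

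Before the levels, the identity and depth of the libraries were checked. All 7 PGC markers listed (Dppa3, Nanos3, Dazl, Sycp3, Dnd1, Ddx4 and Kit) reached at least 1 TPM in both libraries. Of all genes, 60.0% did. The PGC markers had medians of 6.89 and 6.61 on the log2(TPM + 1) scale, while the medians of all genes were 1.89 and 1.85. Erythroid markers were present too: 4 of the 5 in the table reached 1 TPM in both libraries, with list medians of 8.09 and 7.89, above those of the PGC list. TPM, the deposited unit, divides the reads of a gene by its length and brings every library to the same sum. Reads recovered from the table summed to 15912467 in replicate 1 and 5458682 in replicate 2, so values of replicate 1 have the smaller counting error. For the 4 factors, 8 of 8 values came within 0.02 of a whole read.

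All 4 factors were expressed in both replicates at moderate levels. At a threshold of 1 TPM, 4 of 4 were detected in both, where 60.0% of all genes in the table were. Tfap2c was the highest and Prdm1 the lowest, and the order Tfap2c, Prdm14, Cbfa2t2, Prdm1 was the same in each replicate.

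Tfap2c was at 17.0 TPM in replicate 1 (596 reads, exact 95% Poisson interval 15.7 to 18.5 TPM) and 18.2 TPM in replicate 2 (224 reads, 15.9 to 20.8 TPM), with a mean of 17.6 ± 0.827 TPM (SD, n = 2). Prdm14 was at 15.3 TPM (373 reads, 13.8 to 16.9 TPM) and 14.0 TPM (120 reads, 11.6 to 16.7 TPM), with a mean of 14.7 ± 0.922 TPM. The intervals of the replicates overlapped for each of these genes, and Tfap2c was the only one of the 4 with its higher value in replicate 2.

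Cbfa2t2 was at 10.7 TPM in replicate 1 (881 reads, 10.02 to 11.4 TPM) and 10.2 TPM in replicate 2 (296 reads, 9.10 to 11.5 TPM), a mean of 10.5 ± 0.338 TPM (SD, n = 2). It is the longest of the 4 and had the most reads and the smallest spread. Prdm1 was at 7.84 TPM (416 reads, 7.11 to 8.64 TPM) and 6.11 TPM (114 reads, 5.04 to 7.34 TPM), a mean of 6.98 ± 1.22 TPM. Prdm1 was thus lowest in each library and had the widest relative spread, with a coefficient of variation of 17.6% compared with 6.30% for Prdm14, 4.69% for Tfap2c and 3.23% for Cbfa2t2.

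**Figure D1:**
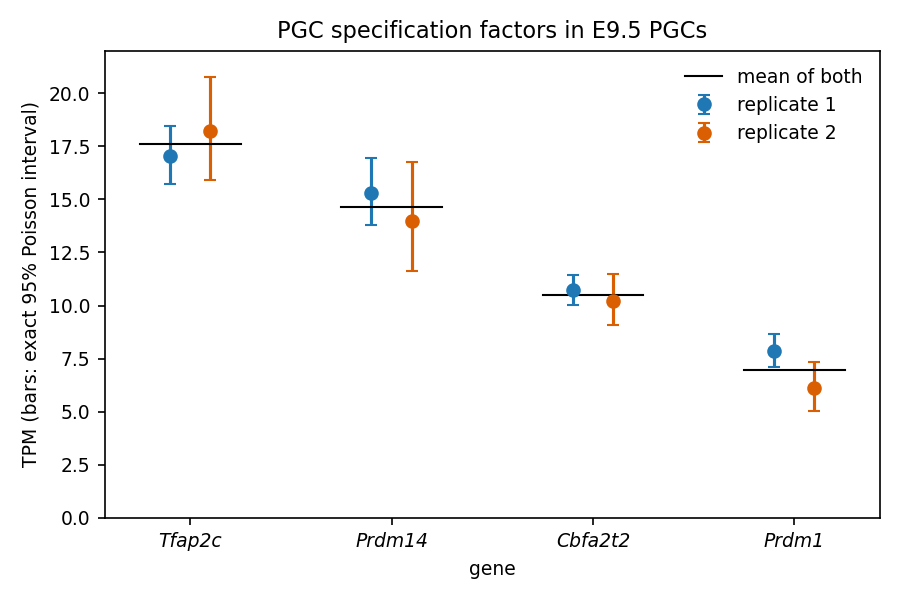
TPM of the 4 factors (vertical axis, from 0) in replicate 1 (blue) and replicate 2 (orange), with exact 95% Poisson intervals as bars and the mean of both replicates as a black line. Tfap2c lies at 17.0 and 18.2 TPM and Prdm1 at 7.84 and 6.11 TPM, and the replicates of each gene lie closer to each other than Tfap2c lies to Prdm1.

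The levels were compared in order. Per base of gene length, Tfap2c exceeded Prdm14 by 1.11 times in replicate 1 (exact 95% interval of the ratio 0.977 to 1.27) and by 1.30 times in replicate 2 (1.04 to 1.64). On the log2(TPM + 1) scale the difference of 0.25 was larger than the SD of either gene (0.0641 for Tfap2c and 0.0851 for Prdm14), but in replicate 1 the counting interval of the ratio included 1. By counting error, the order of Tfap2c and Prdm14 was thus not resolved in replicate 1.

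Prdm14 exceeded Cbfa2t2 by 1.43 times in replicate 1 (1.26 to 1.61) and 1.37 times in replicate 2 (1.10 to 1.70). This order rested on the gene length: with the longest annotated transcript (6080 bases for Cbfa2t2) in place of all exonic bases, Cbfa2t2 was at 12.2 ± 0.411 TPM and Prdm14 at 12.0 ± 0.772 TPM (SD, n = 2). Cbfa2t2 exceeded Prdm1 by 1.37 times (1.21 to 1.54) and 1.67 times (1.34 to 2.10). Between the ends of the order, Tfap2c exceeded Prdm1 by 2.17 times in replicate 1 (1.91 to 2.47) and 2.98 times in replicate 2 (2.37 to 3.77). Within the PRDM family, Prdm14 exceeded Prdm1 by 1.95 times (1.69 to 2.25) and 2.29 times (1.76 to 2.99).

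In all 6 pairs the difference of means was larger than the SD of either gene and had the same sign in both replicates. With 1 group of 2 libraries there is no test between groups, and the ratios compare genes within a library. The intervals cover counting error only, because amplified copies of a molecule cannot be recognised here.

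Among all genes in the table, the 4 factors lay above the median of the table and far below the most abundant germ cell transcripts. Tfap2c was at the 79.7th and 81.1st percentile of genes in replicate 1 and replicate 2, Prdm14 at the 78.4th and 77.9th, Cbfa2t2 at the 73.3rd and 73.4th, and Prdm1 at the 68.7th and 65.2nd. Among genes at a mean of at least 1 TPM the percentiles averaged over both replicates were lower. They were 71.3 for Tfap2c, 68.0 for Prdm14, 61.0 for Cbfa2t2 and 51.6 for Prdm1, which was then near the middle. Relative to the median gene of the table, Tfap2c was 6.29 and 6.99 times higher and Prdm1 2.90 and 2.34 times higher. In relation to Dppa3, which encodes the PGC marker Stella, Tfap2c reached 0.340% and 0.359% of its TPM and Prdm1 reached 0.156% and 0.120%.

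**Figure D2:**
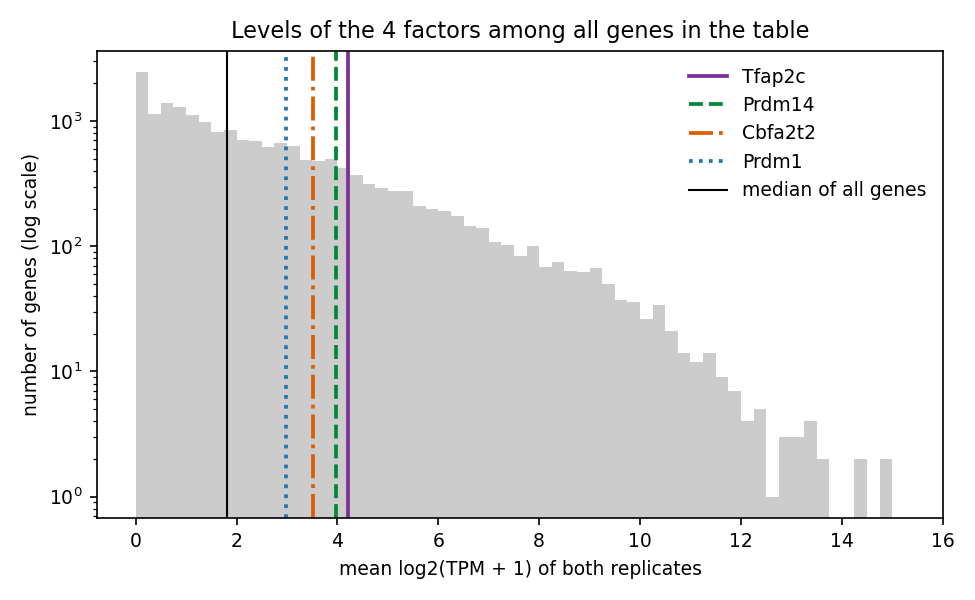
Number of genes (vertical axis, log scale) by mean log2(TPM + 1) of both replicates (horizontal axis) for all 18877 genes, with a line for each factor and a black line for the median gene. The 4 factors lie between 2.99 (Prdm1) and 4.22 (Tfap2c), to the right of the median and left of the long tail of abundant transcripts.

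The replicates were then set against each other for each factor. The difference (replicate 2 minus replicate 1) in log2(TPM + 1) was 0.09 for Tfap2c, -0.12 for Prdm14, -0.06 for Cbfa2t2 and -0.31 for Prdm1. None of the 4 differed over 2-fold, where 10.2% of all genes did, 4.31% higher and 5.89% lower in replicate 2. The ratio of replicate 2 to replicate 1 was 1.07 for Tfap2c (exact 95% interval 0.912 to 1.25), 0.915 for Prdm14 (0.738 to 1.13) and 0.955 for Cbfa2t2 (0.835 to 1.09), each interval including 1. For Prdm1 the ratio was 0.779 and its interval, 0.628 to 0.961, lay below 1.

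Differences of this size were common among genes at like levels. Over 3903 genes at a mean of 5 to 20 TPM, the median absolute difference was 0.27, and 43.7% of them differed more than Prdm1 did, compared with 75.2% for Prdm14, 80.7% for Tfap2c and 86.5% for Cbfa2t2. A difference here describes this pair of libraries and no condition.

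**Figure D3:**
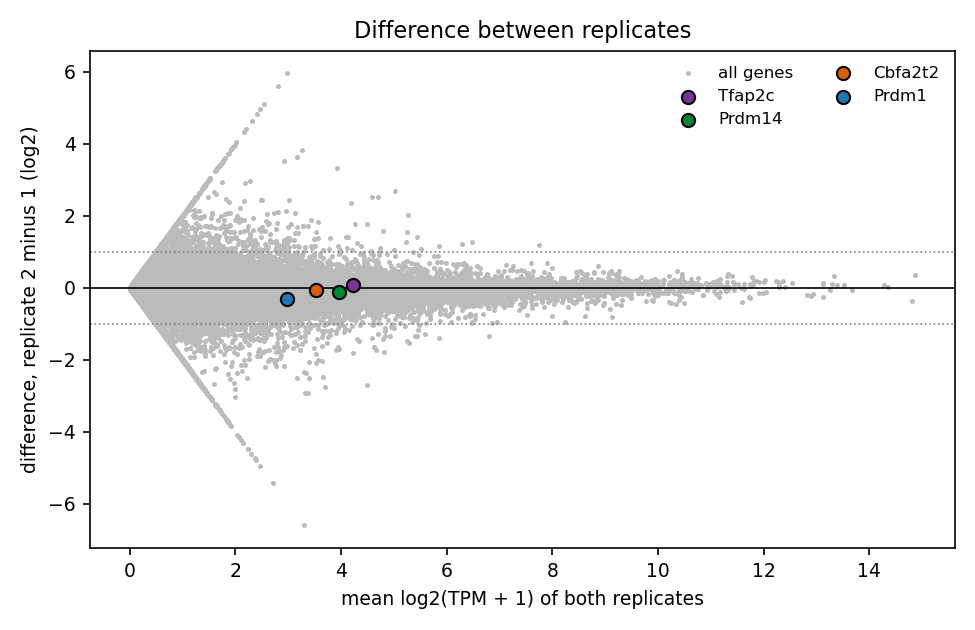
Difference of log2(TPM + 1), replicate 2 minus replicate 1 (vertical axis), against the mean of both (horizontal axis) for all genes (grey) and the 4 factors (coloured), with dotted lines at a 2-fold difference. Prdm1 at -0.31 lies lowest of the 4, and all 4 lie within the dotted lines.

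Prdm1 is also known from endoderm and blood cells, so markers of other cell types were read beside its lower value in replicate 2. Of the markers listed, 3 of 4 endothelial, 3 of 4 macrophage, 4 of 8 endoderm and 5 of 7 erythroid genes were in the table. Endothelial markers had a sum of 4.27 TPM (replicate 1) and 0.800 TPM (replicate 2), and 3 of 3 in the table (Emcn, Tek and Kdr) were lower, where 51.3% of all genes were, with Emcn at 0 in replicate 2. Macrophage markers (Fcer1g, Csf1r and Tyrobp) summed to 18.2 and 9.53 TPM and 3 of 3 were lower, none of them at 0. Both lists were thus lower in the replicate in which Prdm1 was lower, but such a direction was not particular to them. Of the PGC markers, 6 of 7 were lower and 1 higher in replicate 2, with sums of 5798 and 5795 TPM. Endoderm markers summed to 2.16 and 1.16 TPM, with 2 of 4 lower, Foxa1 listed at 0 in both replicates, Foxa2 at 0 in replicate 1, Afp at 0 in replicate 2 and Gata6 at 82 and 14 reads. Erythroid markers, among them the embryonic globin genes Hba-x, Hbb-y and Hbb-bh1, summed to 3537 and 3331 TPM, with 3 of 5 lower and none at 0. The part of endothelial, macrophage, endoderm or erythroid cells in the difference of Prdm1 was not tested. In bulk RNA, fewer cells of a type and less RNA per cell cannot be told apart.

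Tfap2c is also known from surface ectoderm, neural crest and trophoblast. Of the markers listed for these, 4 of 5 surface ectoderm, 1 of 5 neural crest and 2 of 4 trophoblast genes were in the table. Of the surface ectoderm markers, 3 of 4 in the table reached 1 TPM in both replicates, where 60.0% of all genes did. These were Grhl3 at 11.7 ± 0.104, Krt18 at 9.19 ± 0.0462 and Krt8 at 3.95 ± 0.187 TPM (SD, n = 2). Grhl2 was at 0.797 ± 0.298 TPM. The surface ectoderm list summed to 25.6 TPM in each replicate. In replicate 2, 3 of 4 were lower and 1 higher, where 51.3% of all genes were lower. The neural crest list had 1 gene in the table, Erbb3, at 6.26 ± 0.292 TPM, and the trophoblast list had Gcm1 at 1.73 ± 0.00433 and Gata3 at 0.680 ± 0.102 TPM. None of the markers in the table from these lists was at 0, and their part in the level of Tfap2c was not tested.

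The families of the factors were compared. Of 15 PRDM genes listed, 9 were in the table and 5 of them, Prdm14 and Prdm1 included, reached 1 TPM in both replicates, which is 55.6% compared with 60.0% of all genes. Prdm14 was the highest of the 9 in each replicate. Prdm1 followed by its mean but changed places with Prdm4, which was at 5.84 and 7.37 TPM (121 reads in replicate 2, 6.11 to 8.80 TPM). The order of Prdm1 and Prdm4 therefore differed between the replicates.

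Other family members were lower. Prdm10 was at 2.77 and 1.16 TPM. Prdm13, a neural regulator, was at 0.934 and 1.40 TPM, Prdm2 at 0.539 and 1.25 TPM, and Prdm15 at 0.678 and 0.851 TPM. Prdm9, which places meiotic recombination sites, was lowest with 22 and 6 reads (0.537 and 0.417 TPM). The median of the family was 1.92 in replicate 1 and 1.26 in replicate 2, compared with 1.89 and 1.85 for all genes.

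Of the 5 AP-2 genes, only Tfap2c was in the table, and the other 4 were not analysed here. Of the 3 ETO genes, Cbfa2t2 and its paralog Runx1t1 (also called ETO or MTG8) were in the table. Runx1t1 was at 15.8 TPM in replicate 1 (1197 reads, 14.9 to 16.7 TPM) and 12.6 TPM in replicate 2 (336 reads, 11.3 to 14.1 TPM). It exceeded Cbfa2t2 by 1.48 times (1.35 to 1.61) and 1.23 times (1.05 to 1.45). With all exonic bases as the length, the partner of PRDM14 was thus the lower of both measured ETO genes in each replicate. No level with the longest transcript was computed for Runx1t1.

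**Figure D4:**
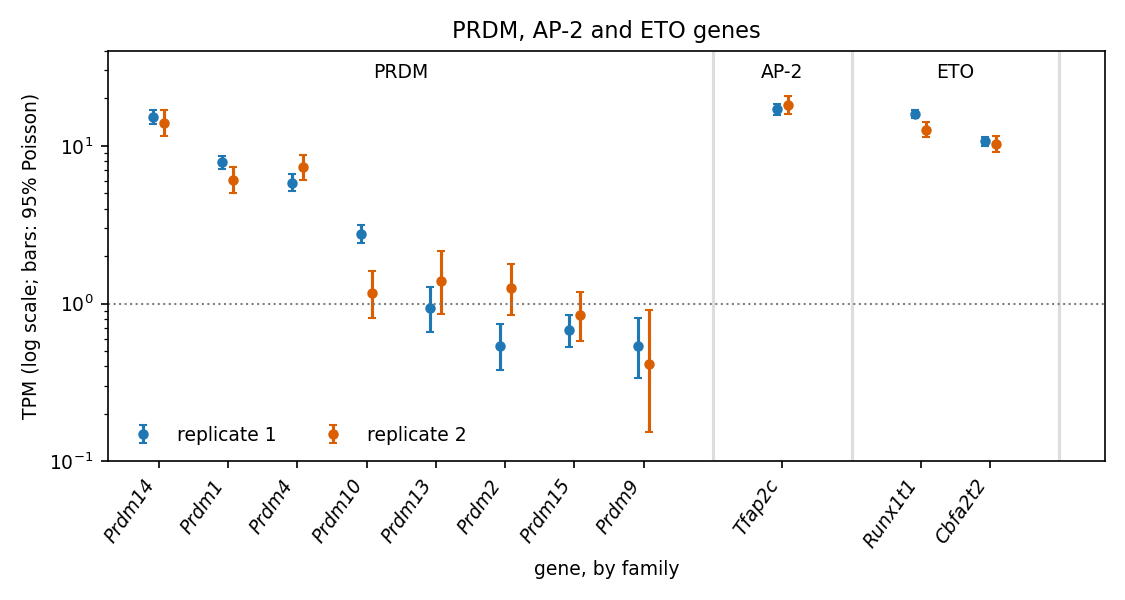
TPM (vertical axis, log scale) of PRDM, AP-2 and ETO genes, by replicate, with exact 95% Poisson intervals and a dotted line at 1 TPM. Prdm14 lies above the other PRDM genes shown in both replicates, Prdm1 and Prdm4 change places, and Runx1t1 lies above Cbfa2t2.

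The inducing signals and their receptors were examined next. Of 4 ligands in the table, 2 reached 1 TPM in both replicates (compared with 60.0% of all genes). Bmp4, the main inducer of PGC fate, was at 5.43 TPM (116 reads, 4.49 to 6.51 TPM) in replicate 1 and 1.46 TPM (11 reads, 0.731 to 2.62 TPM) in replicate 2, so its replicates did not overlap within counting error. Bmp8b was at 3.80 and 1.39 TPM and Wnt3 at 0.616 and 1.46 TPM. Bmp2 had 0 reads in both replicates, for which a limit of 3 reads allows at most 0.0888 TPM (replicate 1) and 0.252 TPM (replicate 2).

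Of 8 receptors and effectors in the table, 7 reached 1 TPM in both replicates (87.5%, compared with 60.0% of all genes). Ctnnb1, which encodes beta-catenin, was highest at 193 ± 9.85 TPM (SD, n = 2), followed by Smad4, the common SMAD, at 16.5 ± 1.97 TPM and the BMP receptor gene Bmpr1a at 13.7 ± 2.09 TPM. The lowest were Bmpr2 at 1.09 ± 0.0615 TPM and Smad9 with 4 reads and 0 reads. All 8 were lower in replicate 2, where 51.3% of all genes were, but for Smad9 the limit of 3 reads in replicate 2 (0.167 TPM) lay above its value in replicate 1. The list median was 2.29 in replicate 1 and 1.93 in replicate 2. Bmpr1a and Smad4 were thus between Prdm1 and Tfap2c by their means.

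Partners of the factors were mostly detected, with the highest levels among those of PRDM1, PRDM14 and CBFA2T2. For PRDM1, 8 of 8 partners in the table reached 1 TPM in both replicates, where 60.0% of all genes did, with list medians of 4.22 and 4.11. The histone deacetylase Hdac2 was highest at 130 ± 4.96 TPM, followed by Wdr77, the binding partner of the arginine methyltransferase PRMT5, at 41.6 ± 0.727 TPM and the Groucho co-repressor Tle4 at 36.0 ± 4.75 TPM (SD, n = 2). Hdac1 (5.11 ± 0.845 TPM) and the H3K9 methyltransferase gene Ehmt2 (1.37 ± 0.449 TPM) were lowest. In both replicates, 6 of the 8 partners exceeded Prdm1 itself, below which 68.7% (replicate 1) and 65.2% (replicate 2) of all genes lay.

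For PRDM14 and CBFA2T2, 11 of 12 partners reached 1 TPM in both replicates (91.7%, compared with 60.0% of all genes), with medians of 4.86 and 4.71. The Polycomb gene Eed was at 86.0 ± 10.7 TPM, the co-repressor scaffold Sin3b at 47.7 ± 4.69 TPM and the H3K27 methyltransferase gene Ezh2 at 47.0 ± 3.40 TPM (SD, n = 2). The E-protein gene Tcf4 was among the lowest at 1.33 ± 0.199 TPM (383 reads in replicate 1 and 109 in replicate 2), a level per base of all its annotated exons. Of the 12, 7 exceeded Tfap2c, the highest of the 4 factors, in both replicates. The share of all genes below Tfap2c was 79.7% in replicate 1 and 81.1% in replicate 2.

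For TFAP2C, 7 of 7 partners in the table reached 1 TPM in both replicates (60.0% of all genes did), at lower levels, with medians of 2.04 and 1.67. The acetyltransferase gene Crebbp was at 12.1 ± 1.28 TPM, the H3K4 demethylase gene Kdm5b at 3.66 ± 0.263 TPM and Ep300 at 2.72 ± 0.272 TPM (SD, n = 2). Kctd15, whose product inhibits AP-2 proteins, was at 2.19 ± 0.595 TPM and Wwox at 1.72 ± 0.0580 TPM. None of the 7 exceeded Tfap2c, but most genes of any kind did not: 79.7% (replicate 1) and 81.1% (replicate 2) of all genes lay below it.

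Downstream genes were read by the direction in which the factors are known to act on them. Of 11 listed somatic genes that are silenced downstream of PRDM1, 6 were in the table, and the other listed genes were not analysed. These 6 were near the limit of detection: 0 of 6 reached 1 TPM in both replicates, where 60.0% of all genes did. Their medians were 0.36 and 0.43. Myc was highest with 15 and 9 reads (0.581 and 0.991 TPM), followed by Cdx1 with 10 and 2 reads. Eomes had 0 and 5 reads. T, the mesoderm gene that encodes Brachyury, had 0 reads in both, for which 3 reads allow at most 0.136 TPM (replicate 1) and 0.388 TPM (replicate 2). The upper limits for T were thus below the level of each of the 4 factors.

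Genes that are repressed downstream of PRDM14 were detected at low levels, 5 of 6 at 1 TPM in both replicates (83.3%, compared with 60.0% of all genes), with a median of 1.76 in each replicate. The FGF receptor gene Fgfr1 was highest at 5.62 and 7.51 TPM, followed by Ehmt1 at 2.62 and 3.83 TPM and Dnmt3a at 3.10 and 2.26 TPM. Fgfr2 was at 1.39 and 2.49 TPM, and the de novo methyltransferase gene Dnmt3b had 23 and 15 reads (0.474 and 0.879 TPM). Fgfr1 exceeded Prdm1 in replicate 2 (7.51 compared with 6.11 TPM) but not in replicate 1 (5.62 compared with 7.84 TPM). None of the 6 exceeded Prdm1 in both replicates, and Prdm14 was above each of them in both. Most genes also lay below Prdm1 (68.7% and 65.2% of all genes) and below Prdm14 (78.4% and 77.9%).

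Germ cell and pluripotency genes that rise at specification were all detected, 9 of 9 at 1 TPM in both replicates (60.0% of all genes were), with medians of 5.30 and 5.39. Dppa3 was highest at 5013 and 5075 TPM, and Sox2, a pluripotency factor, was at 106 and 146 TPM. Nanos3, an RNA-binding regulator that keeps PGCs alive, was at 473 and 453 TPM. In both replicates 7 of the 9 genes exceeded Tfap2c, below which 79.7% and 81.1% of all genes lay. Esrrb, an orphan nuclear receptor, at 11.7 ± 0.190 TPM and the receptor gene Kit at 8.40 ± 0.627 TPM (SD, n = 2) were the lowest, within the range of the 4 factors. No library without these factors was analysed here, so the levels show no effect of them on these genes.

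**Figure D5:**
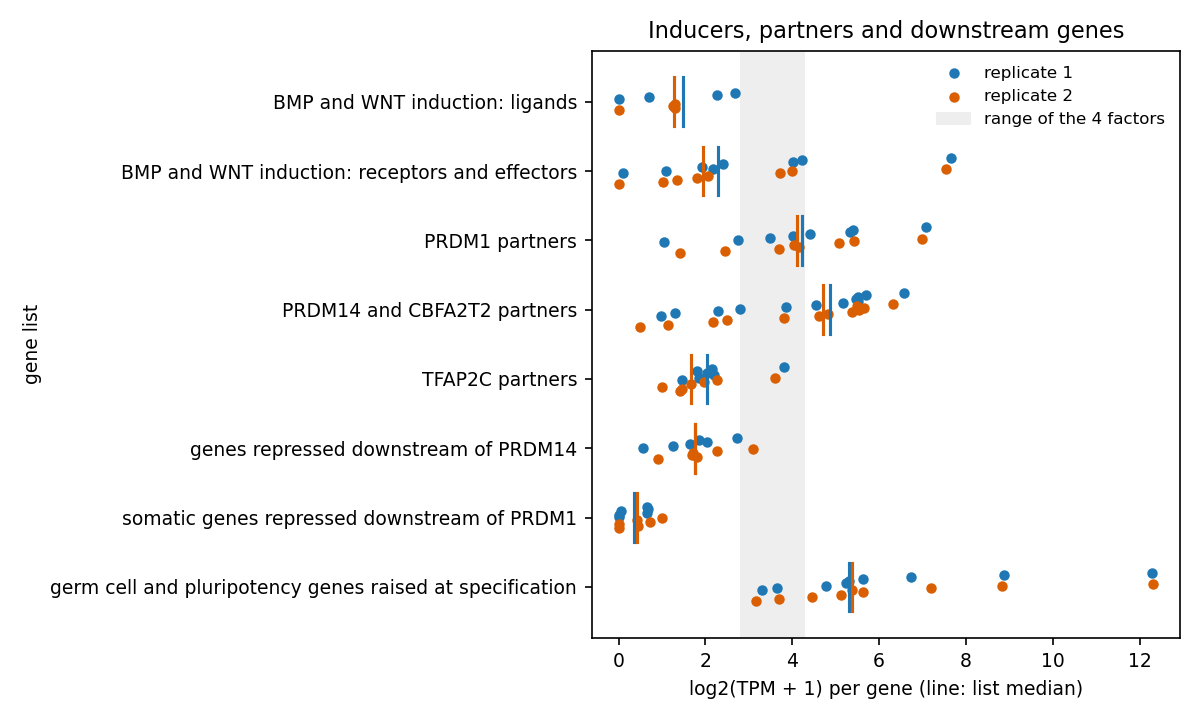
log2(TPM + 1) (horizontal axis) of each gene of 8 lists (vertical axis) in replicate 1 (blue) and replicate 2 (orange), with the list median of each replicate as a line and the range of the 4 factors in replicate 2 (2.83 to 4.26) in grey. Somatic genes lie left of the grey range in both replicates, and most germ cell and pluripotency genes lie to its right.

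Genes with the most similar levels were found by the distance of log2(TPM + 1) over both libraries. They were Eml5, Dhx29 and Daxx for Prdm1 (distances 0.00657 to 0.0102), Kctd3, Kiz and Wasl for Prdm14 (0.0289 to 0.0397), Fam221b, Nptn and Nelfcd for Tfap2c (0.0139 to 0.0263), and Erlec1, Sbno1 and Prkrip1 for Cbfa2t2 (0.0203 to 0.0238). Over 2 libraries such a distance describes similar levels only.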

How the data were processed

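RNA-seq of 2 samples of E9.5 PGCs was used. Per the study's methods, clean reads were mapped to mm10 with Hisat2 and counted by featureCounts, and cDNA was made by Smart-seq2, while the labels name another library kit. The submitters' processing notes also name Bowtie2, RSEM, R 3.4.2 and DESeq2. The values the authors deposited are TPM, so levels are relative within a library. Annotation, strand and multi-mapped reads are not given in the sources used here. Missing list genes were not analysed here, and some genes that the naming rule covers are not reported here.

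Symbols were matched to GENCODE M21 (18748 of 18877; 129 unmatched, 17 of them dates made by a spreadsheet). TPM multiplied by the union of exons gave whole reads: 96.7% and 95.8% of values under 50 reads lay within 0.02 of one (4% by chance). In simulated libraries of 18748 genes, built with the same exon lengths, the recovery returned 100% of counts. This checks the procedure only, and not which lengths the deposited values used. Poisson and binomial (conditional) intervals at 95% are exact; 0 was limited at 3 reads. Fold differences used log2(TPM + 1). No p-value was computed.

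The members and lists were chosen with earlier results of these data known. Named genes were the 4 members, family genes in the table, the 3 highest and 2 lowest of longer lists, all of lists with 5 or fewer, and the 3 nearest in level; others were named after their values were seen. Alternatives were a pseudocount of 0.1, filters, thresholds, scalings, and leaving out each replicate. Python 3.11.15, numpy 2.4.6, pandas 2.3.3, scipy 1.17.1 and matplotlib 3.10.9 were used.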

Additional observations from a re-analysis of the deposited data

How the results depend on the processing

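No paired analysis was possible because there was 1 group. Leaving out either replicate kept the order of all 4 factors. With the length of the longest transcript, an alternative added after seeing the data, Prdm14 minus Cbfa2t2 went from 0.45 to -0.024 on the log2 scale. Prdm14 was then higher than Cbfa2t2 in replicate 1 (12.56 and 12.51 TPM) and lower in replicate 2 (11.5 and 11.9 TPM). Their order was thus not resolved with this length. The same setting moved Prdm14 to 3.70 and Cbfa2t2 to 3.72, and the differences to -0.53 (Prdm14 minus Tfap2c), 0.51 (Tfap2c minus Cbfa2t2) and -0.92 (Prdm1 minus Cbfa2t2). A pseudocount of 0.1 gave levels of 3.88 for Prdm14, 4.15 for Tfap2c and 3.40 for Cbfa2t2, and leaving out genes under 200 exonic bases gave 4.17, 4.42 and 3.72. At 5 TPM the counts detected were 3 PRDM genes, 0 ligands, 3 receptors and effectors, 1 TFAP2C partner and 1 gene repressed downstream of PRDM14. At 0.5 TPM they were 8 PRDM genes and 1 somatic gene. No share of all genes was computed at 5 or 0.5 TPM, so these counts cannot be set against the whole table. Genes over 2-fold apart rose from 1924 to 4468 with a pseudocount of 0.1. The causes of these shifts beyond their construction were not tested. Among protein-coding genes the percentiles averaged over both replicates were 77.8 for Tfap2c, 75.1 for Prdm14, 69.5 for Cbfa2t2 and 62.0 for Prdm1. Replicate 2 has fewer reads and wider counting intervals.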

Other observations

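Several related partner genes were at very unequal levels in both replicates. These pairs were chosen after their values were seen and have no test. Hdac2 exceeded Hdac1 by 23.5 times in replicate 1 (exact 95% interval 20.3 to 27.3) and 28.1 times in replicate 2 (21.3 to 37.8). Among the E-protein genes, whose products bind ETO proteins, Tcf3 exceeded Tcf4 by 29.3 times (26.2 to 32.8) and 38.3 times (31.2 to 47.4), and Tcf12 by 11.0 times (10.03 to 12.2) and 13.0 times (11.0 to 15.4). Crebbp exceeded Ep300 by 5.16 times (4.59 to 5.81) and 3.85 times (3.19 to 4.68). For Sin3b and Sin3a the ratio was 1.45 (1.37 to 1.54) and 1.63 (1.46 to 1.82). The ratios are per base of annotated exons and depend on those lengths. Tcf3 had 1653 reads in replicate 1 and 616 in replicate 2, and Tcf4 had 383 and 109. Their read numbers were thus much less far apart than their TPM. No ratio with the longest transcript was computed for these pairs.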
